A study of Mus musculus with 8 samples.

Results

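Parvalbumin, calbindin, calretinin, somatostatin, cortistatin, vasoactive intestinal peptide, neuropeptide Y, cholecystokinin, reelin and neuronal nitric oxide synthase are the products by which inhibitory interneurons of the cortex are usually told apart. Their 10 genes (Pvalb, Calb1, Calb2, Sst, Cort, Vip, Npy, Cck, Reln and Nos1), out of 34741 genes on the array, were followed in the medial prefrontal cortex (mPFC) of adult mice. They were taken by symbol, as every non-control probe whose gene name in the scanner files equals 1 of the 10 symbols. This gave 13 probes, because Pvalb, Calb1 and Nos1 have 2 probes each and the other genes 1. All 13 were well above background on all 8 arrays, all were tested, and none of their 22 spots was marked as an outlier or saturated.

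The animals were male mice of the inbred strain C3H/HeN, which the labels spell C3H/Hen. In the maternal separation (MS) group, labelled Stress, 4 mice had been parted from their dam each day from postnatal day 2 to postnatal day 14, and the dam was meanwhile put through unpredictable stressors. The 4 control mice, labelled Ctrl, came from litters left with an undisturbed dam. Both groups were weaned at postnatal day 21, worked for condensed milk in operant cages as adults and were food-deprived before they were killed. No transgene, allele or drug was involved. Each array held the RNA of 1 mouse, and the comparison asks whether separation in early life leaves a difference in expression in the adult mPFC. Each animal is called by its group and label number, such as control 8.4.

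Cortical interneurons release GABA and fall into classes that differ in shape, target and firing. Parvalbumin cells fire fast and contact the soma and axon start of pyramidal neurons, somatostatin cells contact dendrites, and many cells with vasoactive intestinal peptide inhibit other interneurons. Parvalbumin, calbindin and calretinin bind calcium through EF-hand loops and buffer it in the cell, whereas the peptides are cut out of larger precursors and released to act on G protein-coupled receptors. Several of the genes are not specific to interneurons, since Cck is also expressed in cortical pyramidal cells and Calb2 strongly in the olfactory bulb.

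The array measures each gene through 60-base probes read with 1 dye. Sequences are shown for 4 probes, in the sense of the transcript from 5′ to 3′. They are those of Calb2 (the gene that varied most between animals), Nos1, Npy and Reln. Nos1 was the gene with the smallest p, at its brighter probe, and the sequence shown is that of its dimmer probe. Capitals mark the codons at which the Npy precursor is amidated and cut after the mature peptide, found by a search for GGNAAGAGA on the strand of the probe, and, in Calb2, the start of a calcium-binding EF-hand loop. Of the 55602 different 60-base probe sequences on the array, 0.209% held the first pattern and 0.018% the second. No letters are singled out in Reln and Nos1.
Npy: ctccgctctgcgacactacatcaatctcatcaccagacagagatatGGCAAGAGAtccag
Calb2: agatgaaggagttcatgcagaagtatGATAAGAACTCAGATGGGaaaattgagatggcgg
Reln: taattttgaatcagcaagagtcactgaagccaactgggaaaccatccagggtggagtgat
Nos1: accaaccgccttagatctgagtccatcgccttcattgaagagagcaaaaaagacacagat

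On build mm9 the Npy probe spans chr6:49773743-49777505 on the plus strand, a stretch longer than the probe because an intron lies inside it. The Calb2 probe lies at chr8:112678555-112678614 on the minus strand, the Reln probe at chr5:21404915-21404974 on the minus strand and the Nos1 probe shown at chr5:118402831-118402890 on the plus strand. The longest run of letters that any 2 of the 13 probes share on either strand is 12, between Reln and Cck, so no probe is a near copy of another member's. Whether each probe lies in a coding exon or a UTR was not analysed here. Levels below are log2 processed signals, from each of which the 75th percentile of its array (log2) was subtracted, so a difference of 1 is a 2-fold change. Levels of the members are compared between animals for 1 probe and not between genes. Across probes, levels serve to pick the brighter probe of a gene, to find probes nearest in level and to sum marker signals.

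None of the 10 genes differed between MS and control mice beyond the spread between animals. Of the 13 probes, 0 had a limma p under 0.05 after Benjamini-Hochberg adjustment, 0 had an unadjusted p under 0.05, and 0 had all MS values above or below all control values. Over all 34098 tested probes these shares were 0%, 2.39% and 1.43%, so the members' counts do not set them apart. The adjusted p of each member probe was 0.9996, the smallest over all probes. At the brighter probe of each gene, 4 genes had a higher mean in MS mice and 6 a lower one, with a median log2 fold change of -0.06, while the median of all tested genes was 0.01 and 54.5% of them were higher. All 10 confidence intervals of 95% included 0, those of 8 genes stayed under 1.5-fold either way, and that of Calb2 alone reached past 2-fold. With 4 arrays per group, differences within these intervals remain possible. The adjustment over 34098 probes could also miss differences larger than these.

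The 8 arrays were alike in most measures. From 61.6% to 68.9% of probes were well above background, the 75th percentiles lay between 588 and 892, and no non-control spot was saturated. Control 8.4 stood apart, with the highest 75th percentile, the lowest median correlation with the other arrays (0.9836) and the lowest limma array weight (0.31). All 8 markers of cortical excitatory neurons and all 6 of GABA neurons were well above background on every array. Markers of the olfactory bulb, which lies in front of the prefrontal cortex, were also found. Of 12 bulb markers 11 were tested, and their summed signal, in multiples of the 75th percentile, ran from 60.7 to 147 in controls and from 55.1 to 92.4 in MS mice. Control 8.4 (147), MS 7.6 (92.4) and control 8.5 (82.3) were the highest. Such a sum is carried by the brightest probes, so it understates how far the dimmer markers differed between animals. The bulb scores given below weigh the 11 markers alike. Tbx21, Avp and Trh had the widest range of all markers, and Tbx21, a factor of bulb projection neurons, ran from -5.23 in MS 5.3 to -0.12 in control 8.4. The bulb marker Eomes was well above background on only 2 control and 2 MS arrays. The 10 striatal markers summed to 86.9 in control 8.4, whereas the remaining animals ranged from 31.5 to 38.1. Each result below is therefore also given without control 8.4 where that matters.

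**Figure D1:**
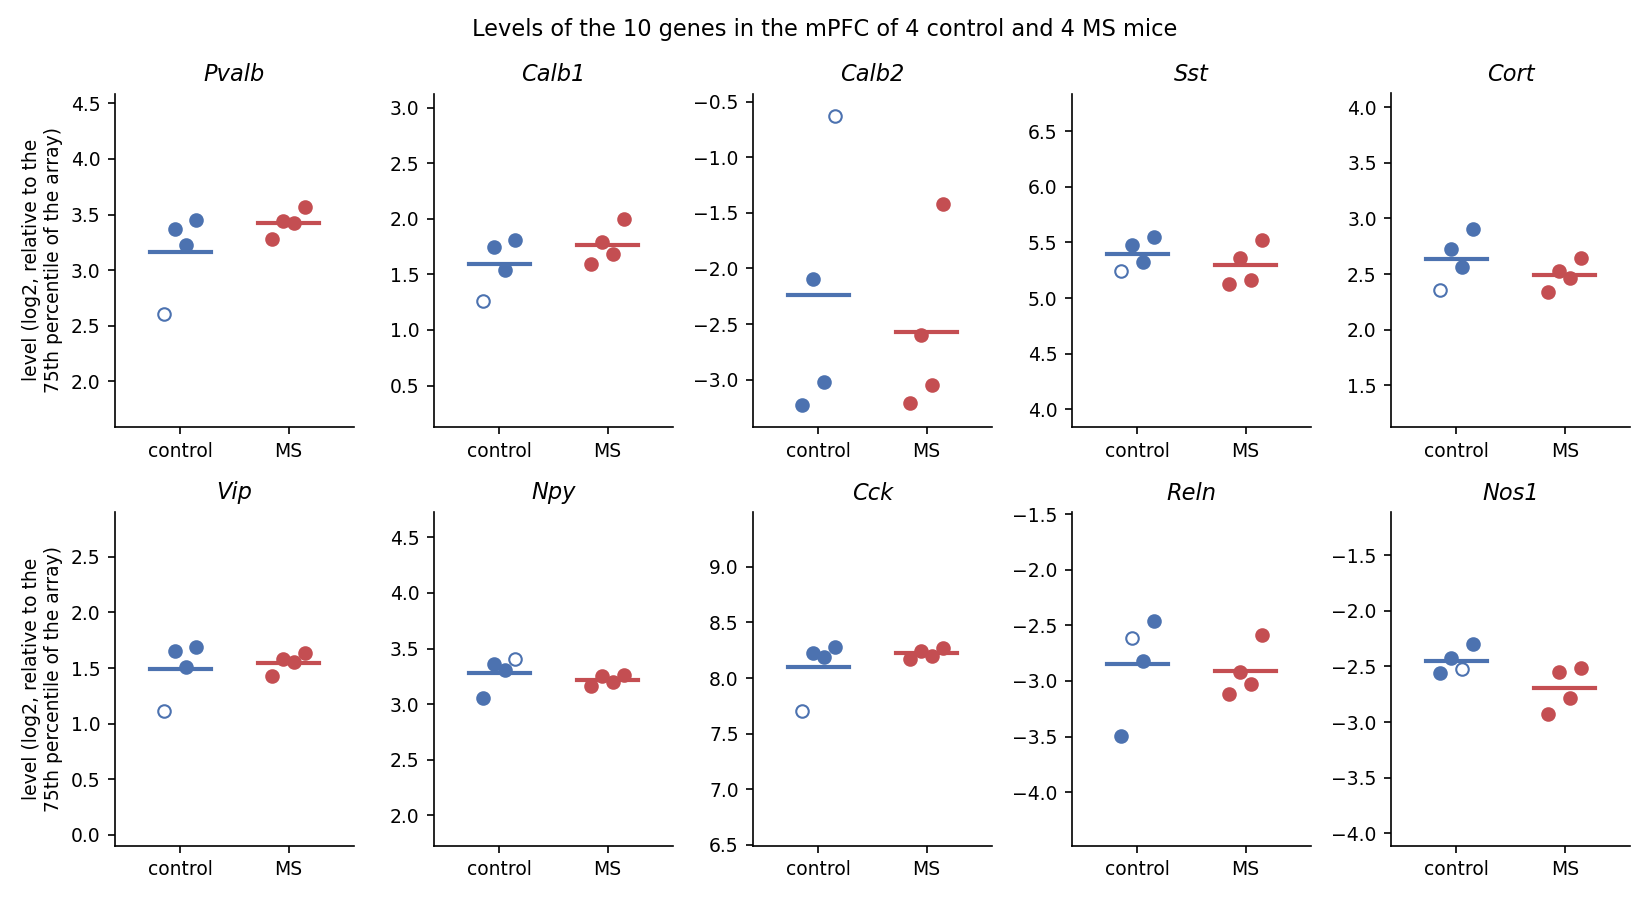
Level of each of the 10 genes at its brighter probe (y axis, log2 relative to the 75th percentile of the array, 3 log2 units high in every panel) in control (blue) and MS mice (red). Each point is 1 animal, the bar is the mean of 4 and the open point is control 8.4. The groups overlap in every panel, and control 8.4 is the lowest animal for Pvalb, Calb1, Vip and Cck and the highest for Calb2 and Npy.

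Among the calcium buffers, Pvalb had the largest difference in the upward direction. Values are given in the order 6.2, 8.5, 8.2 and 8.4 for controls and 5.3, 7.1, 7.2 and 7.6 for MS mice. At its brighter probe (chr15:78021951-78022010, minus strand), Pvalb had levels of 3.37, 3.22, 3.45 and 2.61 in the controls, against 3.57, 3.28, 3.42 and 3.44 in the MS animals. MS 5.3 was the highest animal, control 8.4 was far below the other animals, control 8.5 lay just below the lowest MS mouse, and controls 6.2 and 8.2 lay among the MS mice. The means (± SD, n = 4) were 3.16 ± 0.38 for control and 3.43 ± 0.12 for MS. The log2 fold change was 0.26 with a 95% confidence interval from -0.14 to 0.67 (limma, unadjusted p = 0.173), a ratio of 1.20. Without control 8.4 it was 0.08, from -0.15 to 0.30. The dimmer Pvalb probe (chr15:78021549-78021608, minus strand) read 1.25, 0.82, 1.01 and 0.42 in the controls, against 1.26, 0.98, 1.06 and 0.95 in the MS animals, a difference of 0.19 that became 0.04 without control 8.4. Over the 8 animals the levels at the Pvalb probes correlated with r = 0.91.

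Calbindin is found in many somatostatin cells and also in some pyramidal cells of the upper layers. The brighter Calb1 probe (chr4:15835078-15835137, plus strand) had levels of 1.75, 1.81, 1.54 and 1.26 in the controls, against 1.79, 2.00, 1.68 and 1.597 in the MS animals. Again control 8.4 was the lowest animal, and MS 7.1 was the highest. Its log2 fold change was 0.18 (from -0.14 to 0.50, limma unadjusted p = 0.242), and 0.07 without control 8.4. The dimmer Calb1 probe (chr4:15833582-15833641, plus strand) had levels of -1.19, -1.52, -1.49 and -1.68 in the controls, against -1.34, -1.56, -1.40 and -1.69 in the MS animals. The difference there was -0.03 (from -0.31 to 0.26), of opposite sign to that of the brighter probe, and the levels at both Calb1 probes correlated with r = 0.42 over the 8 animals. The Calb1 probes therefore gave no common direction.

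Calretinin was the most variable member. Calb2 had levels of -3.02, -2.09, -3.23 and -0.63 in the controls, against -3.21, -2.60, -3.05 and -1.42 in the MS animals. The lowest animals of both groups were close together, and 1 animal per group lay far above them, control 8.4 and MS 7.6. The range over the 8 animals was 2.60 log2 units, and its pooled SD of 1.01 was larger than that of 99.4% of tested probes and of 98.9% of the 1000 probes nearest to it in level. The means (± SD, n = 4) were -2.24 ± 1.18 for control and -2.57 ± 0.81 for MS. MS minus control was -0.33 with an interval from -1.68 to 1.03 (limma, unadjusted p = 0.598). Without control 8.4 it was 0.21, from -0.85 to 1.27, the opposite direction. For this gene a difference of more than 2-fold either way was within the interval.

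The level of Calb2 went with the olfactory bulb markers from animal to animal. Its highest values were in control 8.4, MS 7.6 and control 8.5, which were also the animals with the highest bulb scores, the score being the mean deviation of the 11 markers from their 8-animal means. These scores were 2.24, 1.16 and 0.69, and the other animals had scores from -0.92 to -0.63. Pearson's r between Calb2 and the score was 0.99 over the 8 animals and 0.97 over the 7 without control 8.4, a description over points that share a slide and a labelling. The genes most like Calb2 by this measure, among 16281 with an official symbol, were Mapkapk3 and Aqp1 (r = 0.99 each). The part of the bulb markers in the Calb2 values was not tested. In bulk tissue fewer cells of a type and less RNA per cell cannot be told apart.

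**Figure D2:**
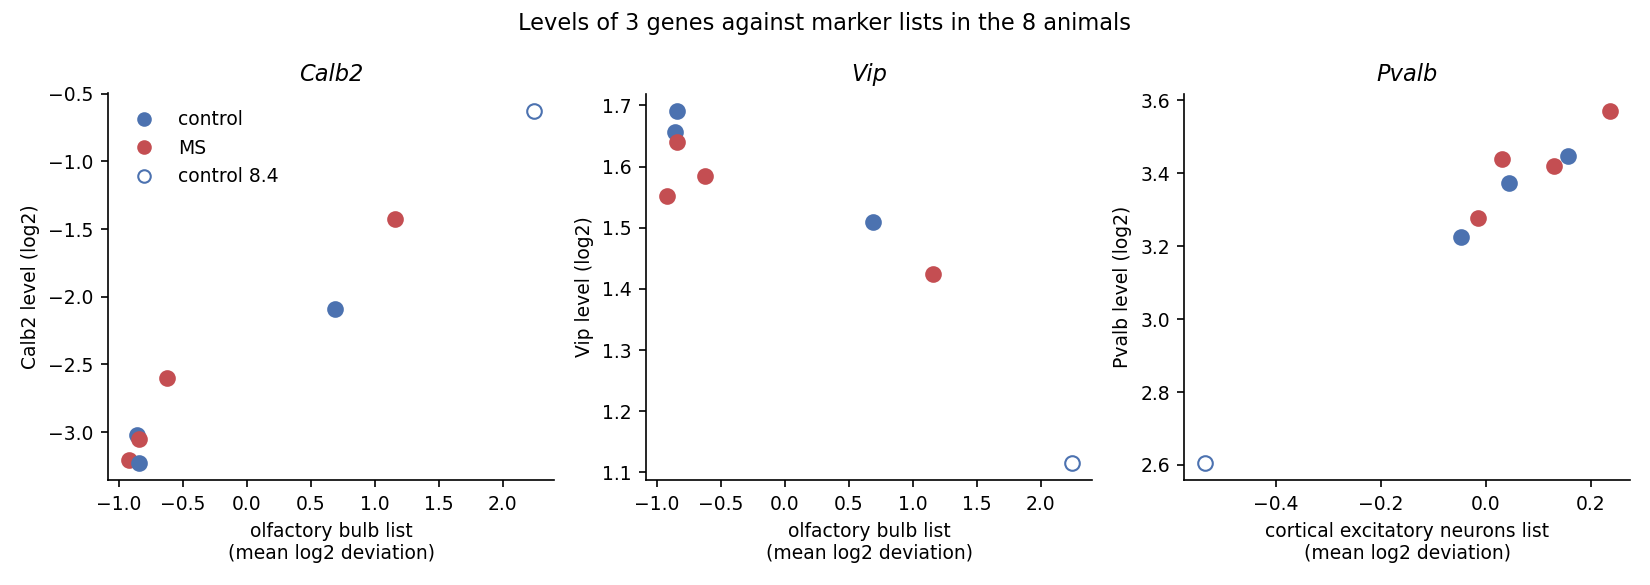
Level of Calb2, Vip and Pvalb (y axes, log2) against the mean deviation of the olfactory bulb or cortical excitatory neuron markers (x axes, log2) in the 8 animals. Blue points are controls, red points MS mice and the open point control 8.4. Calb2 is highest where the bulb score is highest and Vip is lowest there, and Pvalb is low with the cortical markers in control 8.4.

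The peptides showed smaller pooled SDs (0.116 for Npy to 0.197 for Vip) than the calcium buffers did at their brighter probes. For their level most were not small. Of the 1000 probes nearest in level, 82.6% had a smaller SD than Vip, 83.8% than Cort, 87.2% than Sst, 88.9% than Cck and 53.5% than Npy. Somatostatin inhibits neurons and endocrine cells through its own receptor family, and its gene was measured in 10 spots per array. Sst (chr16:23889776-23889835, minus strand) had levels of 5.47, 5.33, 5.55 and 5.25 in the controls, against 5.52, 5.13, 5.36 and 5.16 in the MS animals. The SD between the 10 spots was 0.035 to 0.051 per array, under the SD between animals of 0.14 in controls and 0.19 in MS mice. MS 5.3 was among the highest animals and MS 7.1 the lowest, and the groups overlapped over most of their range. MS minus control was -0.11 on the log2 scale (from -0.37 to 0.16, limma unadjusted p = 0.382), and -0.16 without control 8.4.

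Cortistatin is a close relative of somatostatin that binds the same receptors. Cort (chr4:148499300-148499359, minus strand) had levels of 2.90, 2.73, 2.56 and 2.36 in the controls, against 2.64, 2.52, 2.46 and 2.34 in the MS animals. Control 6.2 was the highest and MS 7.6 the lowest, and control 8.4 lay within the MS range. The means (± SD, n = 4) were 2.64 ± 0.23 for control and 2.49 ± 0.12 for MS. The difference of MS minus control was -0.15 log2 (from -0.43 to 0.14, limma unadjusted p = 0.280). Without control 8.4 it was -0.24 (from -0.49 to 0.02, limma unadjusted p = 0.063), so the interval came close to leaving out 0 but did not.

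Vasoactive intestinal peptide marks interneurons that largely inhibit other interneurons. Vip (chr10:4699238-4699297, minus strand) had levels of 1.66, 1.51, 1.69 and 1.12 in the controls, against 1.55, 1.58, 1.64 and 1.42 in the MS animals. The lowest values were those of control 8.4 and MS 7.6, the animals with the highest bulb scores, and r between Vip and the bulb score was -0.93 over the 8 animals and -0.86 over 7. MS exceeded control by 0.06 log2 (from -0.24 to 0.36, limma unadjusted p = 0.678), and -0.07 without control 8.4. The genes most like Vip were Tmem116 and Spint2 (r = 0.98 each).

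Neuropeptide Y, which is released by a subset of somatostatin cells and by neurogliaform cells, had the smallest spread of all members. Npy levels were 3.31, 3.05, 3.36 and 3.40 in the controls, against 3.26, 3.25, 3.16 and 3.20 in the MS animals. All MS values lay inside the range of the controls, between control 8.5 at the bottom and control 8.4 at the top. The log2 fold change was -0.06 with an interval from -0.27 to 0.15 (limma, unadjusted p = 0.513), a ratio between 0.83 and 1.11. Without control 8.4 it was -0.02.

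Cholecystokinin is made by a class of basket cells and by many pyramidal neurons. Cck (chr9:121398943-121399002, minus strand) had levels of 8.28, 8.19, 8.22 and 7.71 in the controls, against 8.27, 8.24, 8.199 and 8.18 in the MS animals. Apart from control 8.4 all animals lay between 8.18 and 8.28. The difference was 0.12 log2 (from -0.17 to 0.41, limma unadjusted p = 0.371). Without control 8.4 it was -0.01 with an interval from -0.17 to 0.15, the narrowest of all members on those 7 arrays. The genes most like Cck were D630010B17Rik (r = 0.996) and Myh4 (r = 0.989), at 0.90 and 0.84 without control 8.4.

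Reelin is a secreted glycoprotein that guides neuronal position in development and, in the adult cortex, is made by interneurons, chiefly in layer I. Reln levels were -2.82, -2.46, -3.50 and -2.62 in the controls, against -3.12, -2.58, -3.02 and -2.92 in the MS animals. The highest and the lowest animal were both controls, 8.5 and 8.2, and the MS mice lay between them. The log2 fold change was -0.06 (from -0.57 to 0.44, limma unadjusted p = 0.785), and 0.01 without control 8.4. The genes most like Reln were Hsd17b13 and Nebl (r = 0.97 and 0.96).

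Neuronal nitric oxide synthase makes nitric oxide from arginine, strongly in a rare class of long-range somatostatin cells and weakly in others. The brighter Nos1 probe (chr5:118404306-118404365, plus strand) had levels of -2.43, -2.30, -2.56 and -2.52 in the controls, against -2.52, -2.79, -2.55 and -2.92 in the MS animals. MS 7.6 and MS 7.1 lay below every control, whereas MS 5.3 and MS 7.2 lay among the controls. The means (± SD, n = 4) were -2.45 ± 0.12 for control and -2.70 ± 0.19 for MS. The log2 fold change was -0.24 with an interval from -0.50 to 0.01 (limma, unadjusted p = 0.060), a ratio of 0.85. This was the smallest p of the members, and 3.11% of all tested probes had a smaller one. The dimmer Nos1 probe, whose sequence is shown above, read -3.28, -2.96, -3.61 and -3.42 in the controls, against -3.28, -3.58, -3.57 and -3.80 in the MS animals, with a log2 fold change of -0.24 (from -0.60 to 0.12, limma unadjusted p = 0.164). The levels at both Nos1 probes correlated with r = 0.88, and without control 8.4 both differences were -0.27.

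**Figure D3:**
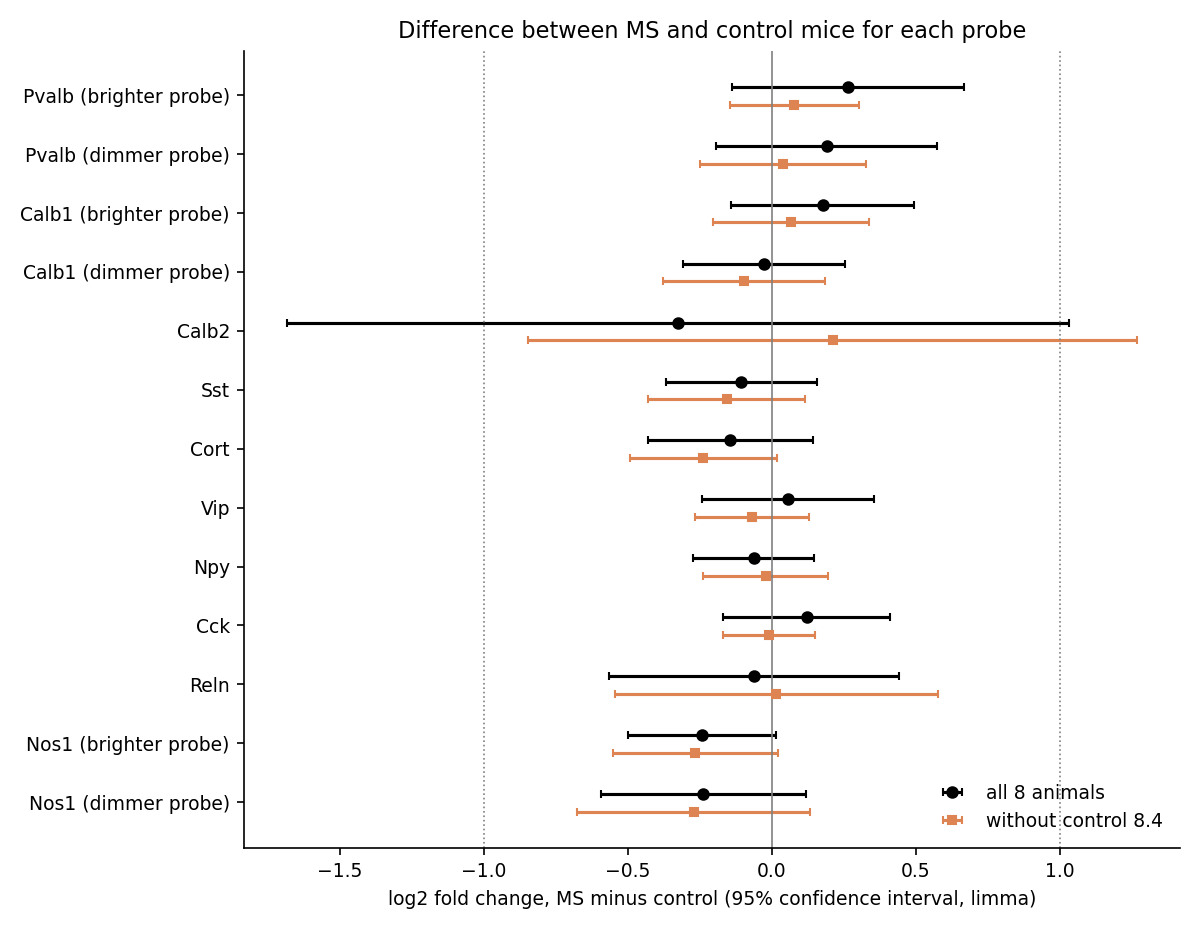
Log2 fold change of MS minus control with its 95% confidence interval from limma (x axis) for the 13 probes (y axis), over all 8 animals (black circles) and without control 8.4 (orange squares). The solid line marks no difference and the dotted lines a 2-fold change. Every interval includes 0, and the Calb2 interval is the widest and its estimate changes side without control 8.4.

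The members fell into patterns over the animals that did not follow the groups. Pvalb, Cck, Vip and Calb1 were lowest in control 8.4, with deviations of -0.69, -0.45, -0.41 and -0.42 from their means over the 8 animals, where Calb2 was 1.78 above its mean and Npy 0.15. In the same animal the mean deviation of the cortical excitatory markers was -0.54, that of the striatal markers 1.25 and that of the GABA neuron markers 0.61. The part of these marker differences in the members' values was not tested. Over the 8 animals r was 0.93 between Cck and Pvalb, 0.92 between Cck and Vip and 0.84 between Pvalb and Vip. Over the 7 animals without control 8.4 these values were 0.27, 0.52 and 0.08, so the likeness rested on that animal. Between Cort and Nos1 r was 0.66 with all animals and 0.79 without it, and between Nos1 and Sst 0.59 and 0.65. Calb2 ran opposite to Vip with r = -0.93, and -0.87 without control 8.4. These are descriptions over arrays of 1 slide, with 45 pairs of members in all.

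Pvalb went with the cortical excitatory markers from animal to animal. Its r with the mean deviation of the 8 excitatory markers was 0.99 over the 8 animals and 0.92 over the 7, and with the 6 GABA neuron markers -0.80 and -0.19. Vip, too, had a negative r with the GABA markers (-0.94, and -0.80 without control 8.4), while Calb2 had a positive one (0.93 and 0.84). Bulb and striatal neurons express genes of the GABA list as well, and the part of such cells in these correlations was not tested. The genes most like Pvalb were Fhad1 and Arhgap42 (r = 0.99 each), those most like Sst Osbpl6 and Slc22a4 (r = 0.97 and 0.96), and those most like Npy Arhgap29 and Ntn1 (r = 0.94 each). For Calb1 they were Med16 and Ndor1 (r = 0.99 each), for Cort Gm9725 and Fgf6 (r = 0.96 each) and for Nos1 Klhdc7b and Tubb1 (r = 0.95 and 0.94). Such genes, for every member, were the top of a search of 16281 genes over 8 animals. A search of this size can yield high r values for unrelated genes, and the likeness was not tested.

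**Figure D4:**
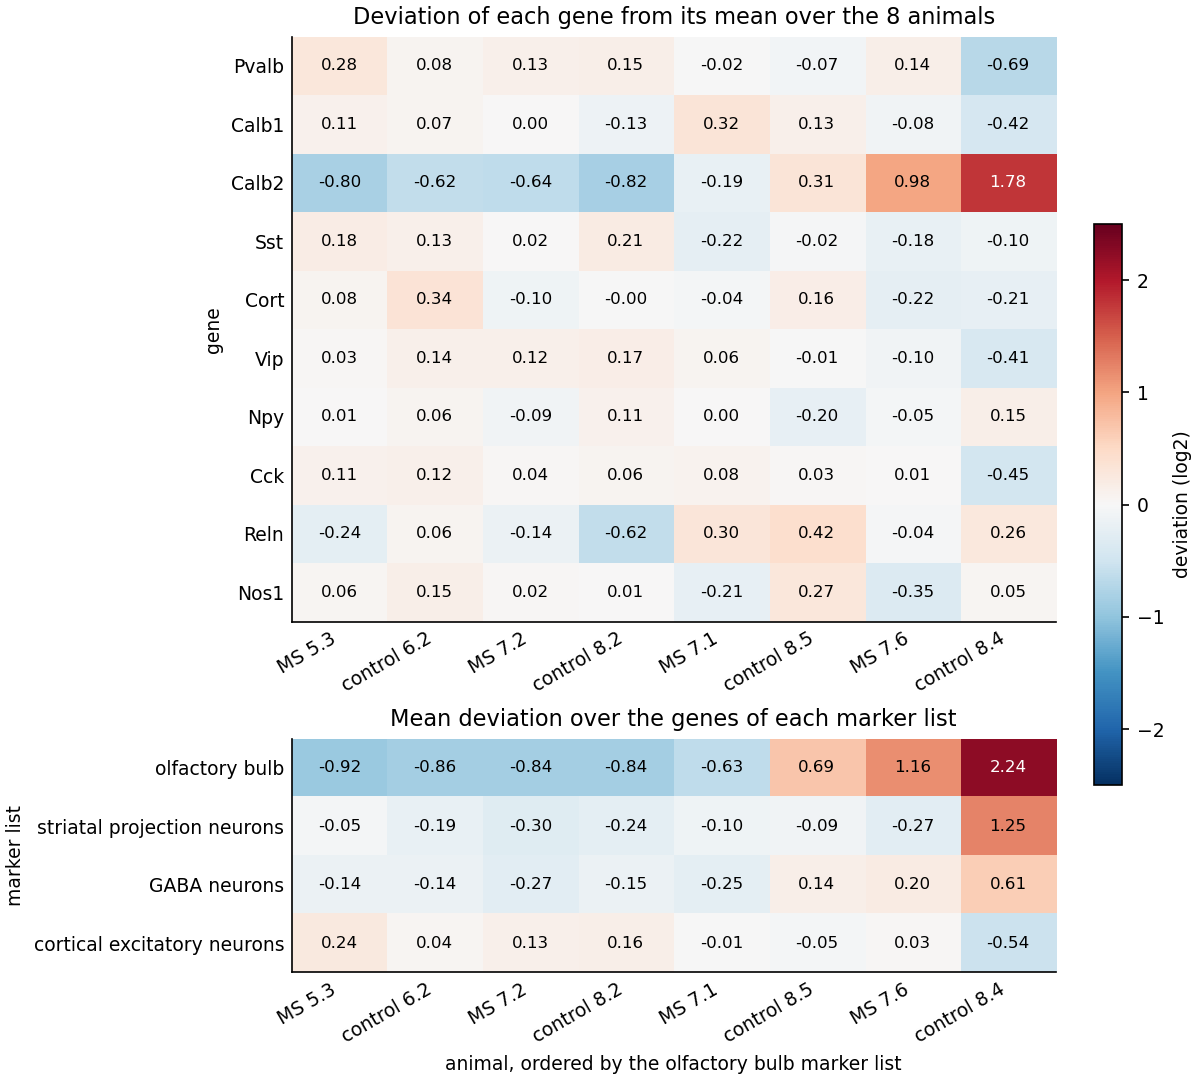
Deviation in log2 units of each member from its mean over the 8 animals (upper panel) and mean deviation of 4 marker lists (lower panel). Columns are animals ordered by the olfactory bulb list, colours run from blue (below the mean) to red (above), and the numbers are the deviations. Calb2 is highest in the 3 columns at the right, where the bulb list is highest, and reaches 1.78 in control 8.4, and Pvalb, Calb1, Vip and Cck are lowest in that column.

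The receptors of the peptides were examined next. Of 12 receptor genes 11 were tested (Cckar was not), 10 were higher and 1 was lower in MS mice, 0 passed the adjusted threshold and 0 had an unadjusted p under 0.05. Their median log2 fold change was 0.13. Without control 8.4, 9 were higher and the median was 0.07. Npy2r and Sstr2, presynaptic and inhibitory receptors for neuropeptide Y and somatostatin, had the largest positive values, 0.31 and 0.28 (limma unadjusted p = 0.276 and 0.132), and were at 0.19 and 0.24 without control 8.4. The receptor Vipr2 was the lower one, at -1.12, with an interval from -4.29 to 2.05, and was -0.15 without control 8.4. Vipr2 read 1.96 in control 8.4, 1.18 in MS 7.6 and 0.44 in control 8.5, whereas the remaining animals read -3.31 to -2.97, the same split as the bulb markers showed. All 10 genes that cut, amidate or store peptides were higher in MS mice, with a median of 0.11, and 9 were without control 8.4, with a median of 0.07. With quantile normalisation 7 of 10 were higher, with a median of 0.056, and 6 of 9 were in the log2 table of the authors, with a median of 0.058. Pam, the amidating enzyme, and the convertase Pcsk1 had the largest values, 0.26 and 0.20 (limma unadjusted p = 0.199 and 0.311), or 0.10 and 0.13 without control 8.4, and 0 of the 10 reached an unadjusted p under 0.05.

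The pathways of reelin and of nitric oxide gave no passing gene either. Of 10 reelin pathway genes 6 were higher and 4 lower, with a median of 0.09 and, without control 8.4, 0.01. The integrin Itga3 and the adaptor Crkl had the largest positive values (0.22 and 0.20, or 0.11 and 0.12 without control 8.4). The kinase Fyn and the adaptor Dab1, which reelin receptors signal through, had the largest negative ones (-0.26 and -0.19, or -0.10 and -0.13 without that animal). Of 10 genes around nitric oxide, including subunits of its receptor guanylate cyclase, 8 were higher with a median of 0.06, and 3 were higher with a median of -0.02 without control 8.4. Gucy1a2 (0.17) and Nos1ap (0.13), a cyclase subunit and a partner of the synthase, were at the upper end, and without control 8.4 Nos1ap was at -0.05. Dynll1 (-0.10) and Prkg1 (-0.04), a light chain that binds the synthase and a kinase activated by cyclic GMP, were at the lower end. None of these 20 genes had an unadjusted p under 0.05.

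Among 30 further genes of interneuron identity 27 were tested (Nkx2-1, Chodl and Syt2 were not), 9 higher and 18 lower in MS mice, with a median of -0.11. These counts were the same without control 8.4, with a median of -0.05. Of the 27 genes 0 passed the adjusted threshold and 2, Adarb2 (-0.34, limma unadjusted p = 0.038) and Sncg (-0.24, limma unadjusted p = 0.031), had an unadjusted p under 0.05, both named after their values were seen. These 2 were 7.41% of the list, beside 2.39% of all tested probes, and without control 8.4 Adarb2 no longer had an unadjusted p under 0.05 (limma unadjusted p = 0.088). The largest negative values were those of the neurokinin receptor Tacr1 and the secreted factor Ndnf (-0.56 each, or -0.15 and -0.33 without control 8.4), and the largest positive ones those of the membrane protein Lamp5 (0.21) and Igfbp6 (0.16), which binds insulin-like growth factors. Without control 8.4 Lamp5 was at 0.08 and Igfbp6 at -0.05. Of 20 other EF-hand proteins 18 were tested (Calml4 and Scgn were not), 10 were higher and 8 lower with a median of 0.04, and 7 were higher and 11 lower with a median of -0.03 without control 8.4. None passed the adjusted threshold, 2 had an unadjusted p under 0.05, and 3 had groups that did not overlap. These were 11.1% and 16.7% of the 18, beside 2.39% and 1.43% of all tested probes. Ocm, oncomodulin, a close relative of parvalbumin, had the largest value (0.60, limma unadjusted p = 0.035), with levels of -1.43, -1.60, -1.37 and -2.53 in the controls, against -1.31, -1.07, -0.99 and -1.19 in the MS animals. Control 8.4 was again the lowest, and without it the difference was 0.33 (limma unadjusted p = 0.013). Cabp1, a calmodulin-like regulator of channels, was next (0.34, limma unadjusted p = 0.023, and 0.22 without control 8.4), and Necab2 (-0.29) and S100a1 (-0.18, and -0.10 without control 8.4) were lowest. The third gene without overlap was Calm2 (0.13, and 0.07 without control 8.4), a calmodulin gene.

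**Figure D5:**
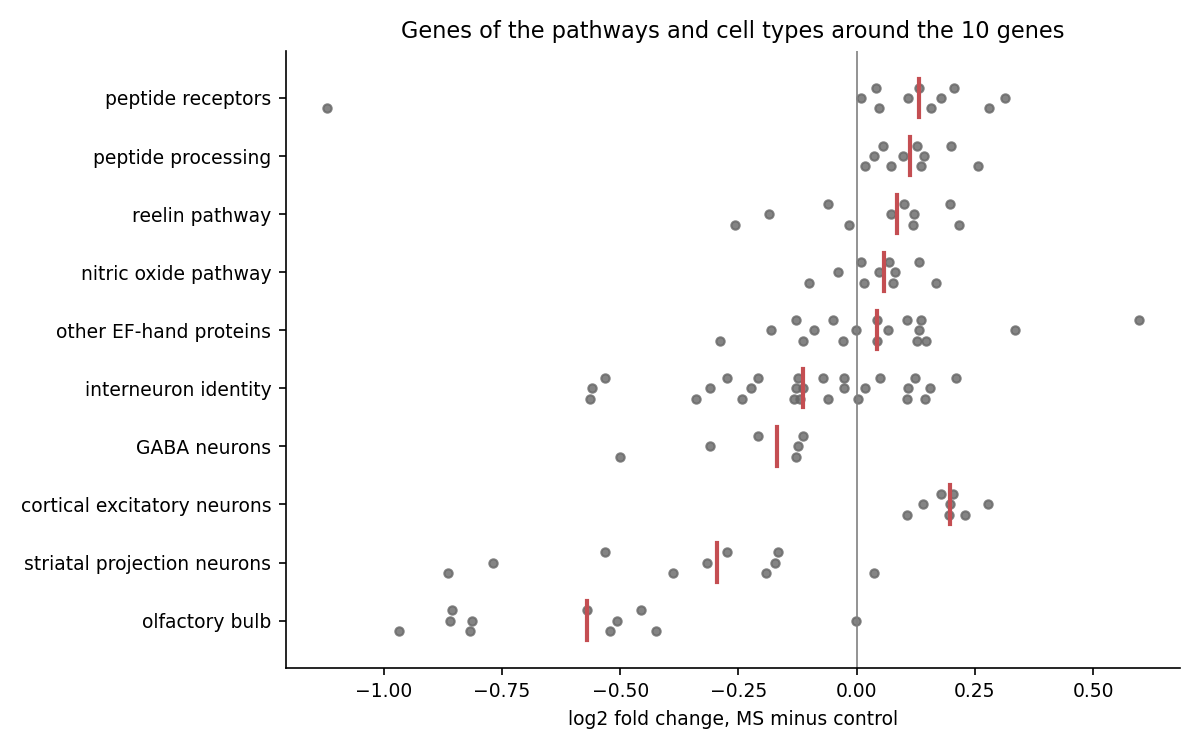
Log2 fold change of MS minus control (x axis) of every tested gene of 10 lists (y axis). Each grey point is 1 gene at its brightest probe and the red bar is the median of the list. Most medians lie within 0.2 of 0, the bulb and striatal lists lie lowest at medians of -0.57 and -0.30, and the point at the far left of the receptors is Vipr2.

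The marker lists moved with control 8.4. The 11 bulb markers were all lower in MS mice with a median of -0.57, though Gng13 only at -0.0013 (limma unadjusted p = 0.990). Without control 8.4 there were 7 higher and 4 lower with a median of 0.01. The median of the 10 striatal markers went from -0.30 to -0.01, and that of the 8 cortical excitatory markers, all higher, from 0.20 to 0.06. The 6 GABA neuron markers were all lower with a median of -0.17, and 4 were lower with a median of -0.05 without that animal. Of the other lists, 4 of 5 astrocyte markers and 4 of 5 oligodendrocyte markers were lower, and 5 of 5 microglial, 3 of 4 endothelial and 3 of 4 choroid plexus markers were higher. Without control 8.4, 2 of 5 astrocyte and 1 of 5 oligodendrocyte markers were lower, and 4 of 5 microglial, 2 of 4 endothelial and 3 of 4 choroid plexus markers were higher. All 5 hypothalamic peptide genes were lower, with a median of -0.63, or -0.37 without control 8.4. Within slide row 1, 3 of these 5 were higher with a median of 0.42, and within slide row 2 the median was -1.69. No gene of any list passed an adjusted p of 0.05.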

How the data were processed

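RNA of the mPFC of 8 mice (200 ng each) was labelled with Cy3 and hybridised to the 8 arrays of 1 Agilent slide, each slide row holding 2 arrays per group. Spot intensity values, deposited as scanner output, were made by the authors with Agilent Feature Extraction (10.10.1.1 per the submitters' processing notes), background-subtracted but not scaled between arrays. A second table of log2 values, normalised by the authors in a way the sources do not state, was used as an alternative. The array design number in the file headers, which differs from that of the methods, was used.

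Outlier spots were removed, spots of a probe averaged and log2 signals taken minus the array's 75th percentile. A probe was tested if it was well above background in all 4 animals of either group (34098 probes of 23435 genes), with limma 3.58.1 in R 4.3.3 (lmFit and eBayes, two-sided, Benjamini-Hochberg at 0.05, no covariate). The methods name lmFit and that adjustment. The packages data.table (version 1.17.8) and statmod 1.5.0, Python 3.11.15 and matplotlib 3.10.9 were also used, and the fit was tested on simulated data.

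The members, lists and alternatives were chosen with earlier results of these data known. Named genes were every member probe, the 2 highest and 2 lowest genes of each companion list (where it had as many on that side of 0), the 2 genes most correlated with each member and the 3 markers of widest range. The bulb markers Gng13 and Pcp4l1 were named besides, for their level, after their values were seen. The brightest tested probe stood for a gene, and symbols came from RefSeq (GRCm38.p6, names only). Whether animals that share the number before the point in their label are related is unknown here. No such number occurs in both groups: MS 7.1, 7.2 and 7.6 share 7, and controls 8.5, 8.2 and 8.4 share 8. If the number marks a shared litter or cage, its part cannot be told apart from that of the separation. The main tests took the 4 animals of a group as independent. Alternatives changed the background correction, the scaling, the filter, outlier spots, slide row, animal number and array weights, or left out animals.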

Additional observations from a re-analysis of the deposited data

Results flagged for a closer look

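Cck in control 8.4, at a level of 7.71 (log2, relative to the 75th percentile), lay far below the other 3 controls, which were between 8.19 and 8.28. The gap to the nearest control was 0.85 of the range of its group. Of the 26 pairs of a member probe and a group tested for such a lone animal it was the 1 case, and chance alone marks about 1 in 20 groups. The 4 MS mice lay between 8.18 and 8.27. The same animal had the lowest Pvalb, Vip and Calb1 levels, which were not marked by this measure.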

How the results depend on the processing

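Under each of 21 alternative settings 0 probes and 0 member probes passed an adjusted p of 0.05. An unadjusted p under 0.05 was reached by a member in 4 of them: both Nos1 probes with the animal number as a random block (estimated correlation -0.22), Cort with array weights, and the brighter Nos1 probe without MS 5.3 or without MS 7.2. Without MS 7.6 the smallest limma unadjusted p of a member probe was 0.163, without MS 7.1 0.131 and with normexp 0.121. Over the settings the Nos1 log2 fold change ran from -0.30 to -0.12 at the brighter probe and from -0.34 to -0.029 at the dimmer. With a negative correlation and each animal number in 1 group only, the random block fit tends to give smaller standard errors. The number of probes with an unadjusted p under 0.05 ran from 425 (normexp) to 3837 (random block), both of 34098 tested. Of as many probes it was 1431 with array weights, 1289 without MS 5.3 and 540 without MS 7.2. The direction was kept by 6 of the 13 probes, those of Cort, Sst and Nos1 and the brighter ones of Pvalb and Calb1. Log2 fold changes turned as follows. Within slide row 1 Npy was 0.076 and Vip -0.016, and within slide row 2 Calb1 at the dimmer probe was 0.041 and Reln 0.087. Quantile normalisation gave -0.021 for Cck and array weights -0.0040 for Vip. Without control 8.4, control 8.5 and MS 7.6 together Calb2 was 0.17, Cck -0.015, Reln 0.25, Vip -0.082 and Pvalb at the dimmer probe -0.028. When 1 animal was left out, Calb1 at the dimmer probe ran from -0.098 (without control 8.4) to 0.067 (without control 6.2), Calb2 from -0.71 (without MS 7.6) to 0.21 (without control 8.4), Cck from -0.011 (without control 8.4) to 0.18 (without control 6.2), Reln from -0.28 (without control 8.2) to 0.066 (without control 8.5) and Vip from -0.069 (without control 8.4) to 0.12 (without control 8.2). The cause was not tested. The count of member probes whose groups did not overlap was 2 within either slide row and 2 without the 3 animals, and ran from 0 to 1 (without control 8.5) when 1 animal was left out. With fewer animals more probes do not overlap. Of all probes these were 27.7% and 30.7% within the rows, 11.5% without the 3 animals and 3.32% without control 8.5. No paired analysis was possible because the groups share no replicate numbers. Every member probe was well above background on all arrays.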
